A study of Mus musculus with 4 samples.

Results

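The Gimap genes (GTPases of immunity-associated proteins) were examined in CD4 and CD8 T cells of mice labelled Gfi1 knockout and wildtype. The members were all probe sets that the platform annotation gives to 1 of 8 mouse symbols alone, Gimap1 and Gimap3 to Gimap9. Probe sets with 1 symbol name 12393 genes on the array, 5 of these 8 among them. There were 6 member probe sets out of 22690 on the array, or out of 22626 without controls, and they covered 5 of the 8 genes: Gimap1, Gimap3, Gimap4 (with 2 probe sets), Gimap6 and Gimap7. Gimap5, Gimap8 and Gimap9 were not listed for any probe set and were not analysed here.

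The samples were T cells of C57Bl/6 mice, sorted by flow cytometry from spleen with antibodies to CD4, CD8 and CD44, untreated. The 4 groups are labelled as CD4+ CD44lo and CD8+ CD44lo cells from Gfi1 knockout mice and from wildtype mice; the signals of Cd44 and of memory and effector genes go against the CD44lo label of the wildtype arrays. Each group had 1 array (Affymetrix MOE430A_2.0), hybridised with RNA pooled from 2 mice. Since there are no replicates, the variation among animals is unknown, and a difference between 2 arrays within a subset carries no p-value. The sources used here do not give age or the form of the Gfi1 allele. In the sample titles the knockout samples end in N and the wildtype samples in M, letters that the labels do not explain. If the arrays also differ in how many antigen-experienced cells they hold, that difference and the genotype cannot be told apart, and this limit holds for every value between the labels, that of Gimap7 included.

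Gimap proteins are GTP-binding proteins with an AIG1-type GTPase domain, made mostly in lymphocytes and encoded in 1 gene cluster. Several members support the survival of mature T cells: loss of Gimap5 causes a T cell deficiency in mice and rats, and loss of Gimap1 depletes mature T and B cells. Gimap3 is a close relative of Gimap5 that acts beside it, Gimap4 affects the course of T cell death, Gimap6 takes part in autophagy through the Atg8-like protein GABARAPL2, and human GIMAP7 stimulates GTP hydrolysis by another family member. CD44 is a receptor for hyaluronan whose surface level rises once a T cell has met antigen. Gfi1 is a zinc finger repressor of transcription.

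In the RefSeq annotation (GRCm38.p6) the 8 genes lie on chromosome 6 in the order Gimap8, Gimap9, Gimap4, Gimap6, Gimap7, Gimap1, Gimap5 and Gimap3. Gimap7 was the member whose signal differed most between the labelled genotypes, and its neighbours Gimap6 and Gimap1 were near level. The 250 bases before the annotated starts of these 3 adjacent genes are therefore shown, 5′ to 3′ in the direction of the gene, as RefSeq sequence. Capitals mark matches to 7 short motifs searched on both strands: RUNX (TGTGGT), ETS (GGAAG), FOXO (GTAAACA), TCF (TCAAAG), GFI1 (AAATCA), RBPJ (TGGGAA) and KLF (CCACCC).
Gimap7 (GRCm38.p6, chr6:48718371-48718620, plus strand): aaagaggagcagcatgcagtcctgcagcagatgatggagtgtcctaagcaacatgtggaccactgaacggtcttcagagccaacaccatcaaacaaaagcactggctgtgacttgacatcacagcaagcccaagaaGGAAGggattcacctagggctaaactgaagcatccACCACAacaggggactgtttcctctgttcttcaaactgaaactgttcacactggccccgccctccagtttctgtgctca
Gimap6 (GRCm38.p6, chr6:48708245-48708494, minus strand): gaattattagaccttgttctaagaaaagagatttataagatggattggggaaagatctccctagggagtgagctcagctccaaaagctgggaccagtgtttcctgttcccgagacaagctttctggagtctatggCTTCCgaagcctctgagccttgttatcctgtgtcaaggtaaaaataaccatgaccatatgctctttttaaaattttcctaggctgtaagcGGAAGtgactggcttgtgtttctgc
Gimap1 (GRCm38.p6, chr6:48738797-48739046, plus strand): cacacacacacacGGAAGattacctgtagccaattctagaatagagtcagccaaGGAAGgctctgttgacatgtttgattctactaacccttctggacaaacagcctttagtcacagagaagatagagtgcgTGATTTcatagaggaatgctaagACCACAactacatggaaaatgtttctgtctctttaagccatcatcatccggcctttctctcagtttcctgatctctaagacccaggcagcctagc

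The Gimap7 window held 1 RUNX match, 74 to 79 bases before the start, and 1 ETS match, 110 to 114 bases before it. The Gimap6 window held 2 ETS matches and none of the other 6 motifs. The Gimap1 window held 2 ETS matches, a RUNX match 90 to 95 bases before the start and a GFI1 match 113 to 118 bases before it. No marked matches overlapped in these 3 windows. Of 32851 RefSeq promoter windows of this length, 64.1% held the ETS letters, 14.0% the RUNX letters, 12.4% the GFI1 letters, 28.1% KLF, 21.6% RBPJ, 13.8% TCF and 3.17% FOXO. The matches are descriptions of these letters, and binding was not measured.

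Every Gimap probe set had a high signal on all 4 arrays. The lowest of the 24 values was 2665, against a floor of 93.9, set at the 40th percentile of the signals without controls, below which signals were not told apart. The deposited signals have no unit of molecules and depend on the probes, so levels are compared between arrays and not between genes. A probe set of 1 array has no error of its own here, so no neighbours in the orders below can be said to differ beyond their spread.

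Gimap7 had the widest range. Its signal (probe set 1425084_at) was 8261 on the array labelled wildtype CD4, 5581 on wildtype CD8, 2772 on knockout CD4 and 2665 on knockout CD8. Both arrays labelled knockout lay below both arrays labelled wildtype, and the highest array was 3.10 times the lowest. How many of all probe sets have the labels apart in this way was not counted. Within CD4 cells Gimap7 was 2.98-fold lower on the array labelled knockout, a log2 difference of -1.58. Within CD8 cells it was 2.09-fold lower, a log2 difference of -1.07.

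Gimap4, the member tied to the course of T cell death, was read by 2 probe sets, for which the annotation names the same source sequence. Probe set 1424374_at read 14605 on knockout CD4, 18194 on wildtype CD4, 12926 on knockout CD8 and 17004 on wildtype CD8. Probe set 1424375_s_at, whose suffix marks probes that can match several transcripts, read 22791, 27412, 21014 and 25322 on the same arrays in that order. Both had the arrays in 1 order, with wildtype CD4 highest, then wildtype CD8, knockout CD4 and knockout CD8. The share of all probe sets whose labelled genotypes lie apart in this way was not counted. The log2 differences between the labels were small, at -0.32 and -0.27 in CD4 cells and -0.40 and -0.27 in CD8 cells. With arrays centred on their medians, those in CD4 cells were -0.0028 and 0.048.

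Gimap6, the autophagy-linked member, varied least. It read 14357 on knockout CD4, 12589 on wildtype CD4, 12664 on knockout CD8 and 14126 on wildtype CD8, so that the highest array was 1.14 times the lowest. The arrays of the labelled genotypes interleaved, with a log2 difference of 0.19 in CD4 and -0.16 in CD8 cells.

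As deposited, Gimap3 and Gimap1 differed more between the subsets than between the labelled genotypes. Gimap3, the relative of Gimap5, read 10411 on knockout CD4, 10980 on wildtype CD4, 8531 on knockout CD8 and 8928 on wildtype CD8. Both CD4 arrays lay above both CD8 arrays, and the log2 difference between the labels was -0.08 in CD4 and -0.07 in CD8 cells. RefSeq lists Gimap5 among the older names of Gimap3, and whether this probe set also reads Gimap5 RNA was not tested. Gimap1, which mature lymphocytes need, read 6617 on knockout CD4, 6594 on wildtype CD4, 5151 on knockout CD8 and 4596 on wildtype CD8. Here too the CD4 arrays were the higher ones, and the labels differed by 0.00 in CD4 and 0.16 in CD8 cells on the log2 scale. The share of all probe sets whose subsets lie apart in this way was not counted, and the limma fit below called neither gene for the subset. Median centring brought the sizes closer. Label differences were then 0.24 (CD4) and 0.15 (CD8) for Gimap3 and 0.32 and 0.38 for Gimap1. Subset differences were -0.23 (wildtype label) and -0.31 (knockout label) for Gimap3 and -0.45 and -0.39 for Gimap1.

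**Figure D1:**
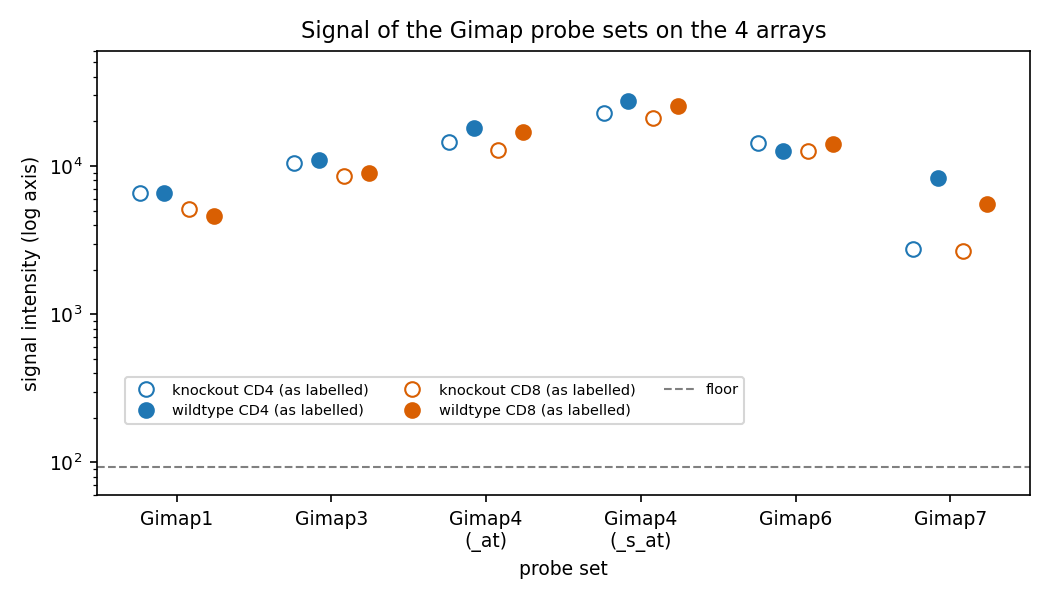
Signal intensity (log axis) of the 6 Gimap probe sets on the 4 arrays, 1 point per array, with open points for arrays labelled knockout, filled points for wildtype, blue for CD4 and orange for CD8; the dashed line is the floor of 93.9. Gimap7 has both knockout-labelled arrays (2772 and 2665) below both wildtype-labelled ones (8261 and 5581), while Gimap6 stays between 12589 and 14357.

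Between the labelled genotypes, Gimap7 was the 1 member at least 1.5-fold apart. In CD4 cells 1 of 6 probe sets was at least 1.5-fold lower on the array labelled knockout, where 14.7% of 14496 probe sets were, and 0 were at least 1.5-fold higher, where 8.41% were. In CD8 cells 1 of 6 was lower, against 10.3% of 14365 probe sets, and 0 were higher, against 4.89%. A count of 1 in 6 is near these background shares. At 2-fold the count was also 1 of 6 lower in each subset, against 7.11% in CD4 and 3.95% in CD8 cells. The median over the members was -0.17 in CD4 and -0.21 in CD8 cells, beside -0.02 over all probe sets in either subset. Gimap7 was lower by at least 1.5-fold in both subsets, as were 678 of 15273 probe sets (4.44%), while 1.53% were higher in both. A difference as low as that of Gimap7 was found for 3.56% of probe sets in CD4 and 3.50% in CD8 cells.

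The distance of Gimap7 from the other members can be read within each array, where a common scaling factor cancels. A scaling that depends on the signal does not cancel. Gimap7 was taken here for its lowest label difference, so its place below the other 5 follows from that choice and only the sizes are described. Relative to each of the other 5 probe sets, Gimap7 was lower on the array labelled knockout in CD4 cells, with log2 values of -1.26 to -1.77 (2.39-fold to 3.40-fold). In CD8 cells the same comparison gave -0.67 to -1.23 (1.59-fold to 2.35-fold). The members thus differed unequally between the labels, which does not show that any of them was level.

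**Figure D2:**
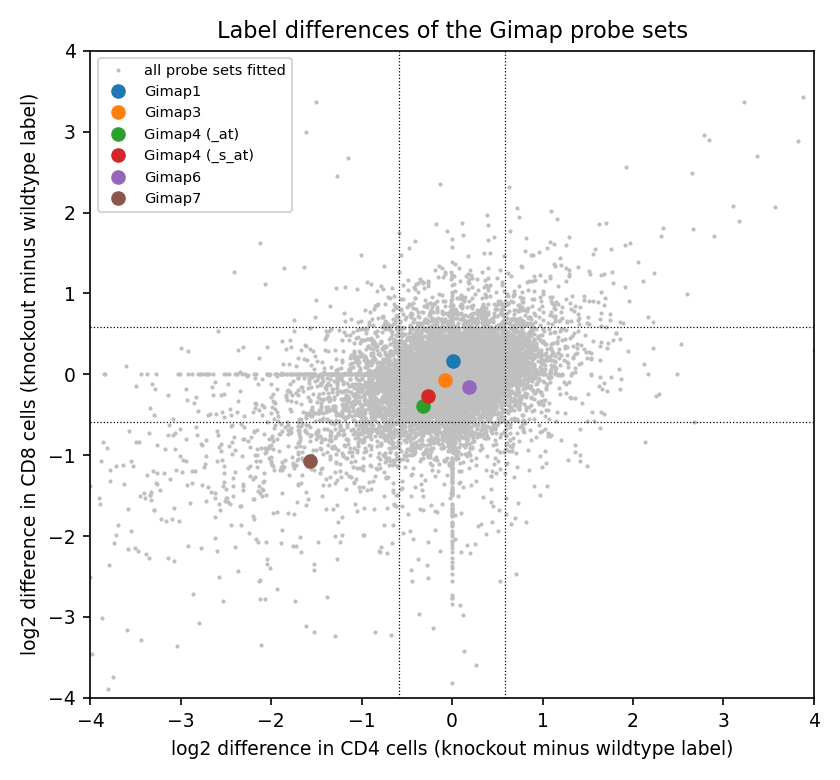
Log2 difference between the arrays labelled knockout and wildtype in CD4 cells (x axis) against that in CD8 cells (y axis), with the 6 Gimap probe sets in colour and all fitted probe sets in grey (51 lie outside the axes); dotted lines mark 1.5-fold. Gimap7 lies at -1.58 and -1.07, and the other 5 lie within 1.5-fold in both subsets.

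Limma was fitted to all 4 arrays with subset and labelled genotype as terms. For the label it called 1.14% of 15273 probe sets in either direction (44 rose and 130 fell). Among the 6 members it called 1, Gimap7, as lower on the arrays labelled knockout. Its fitted log2 difference was -1.32 ± 0.16 (SE; limma adjusted p = 0.0176), and it was lower on 2 of 2 pairs of arrays. The other 5 probe sets were not called: the fitted values were -0.36 ± 0.15 (adjusted p = 0.383) and -0.27 ± 0.18 (0.586) for Gimap4, -0.07 ± 0.14 (0.892) for Gimap3, 0.02 ± 0.16 (0.984) for Gimap6 and 0.08 ± 0.13 (0.856) for Gimap1. This fit has 1 residual degree of freedom, takes the disagreement between the subsets as its error and draws most of its SE from other probe sets of like signal, so it holds no spread between animals. The Gimap7 call was lost under 5 of 12 alternative settings: the adjusted p was 0.0916 after quantile normalization, 0.0799 with arrays centred on their medians, 0.109 with probe sets averaged per gene, 0.179 without the variance trend and 0.851 with all non-control probe sets, and it went down to 0.000234 with a lower floor.

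Scaling changed the sign of small differences and left the direction of Gimap7 as it was. As deposited, 36.4% of the probe sets at least 1.5-fold apart in CD4 cells and 32.3% in CD8 cells were higher on the array labelled knockout; these shares were 52.7% and 48.8% after quantile normalization and 72.7% and 63.2% with median centring. Centring put the median of all probe sets at 0.28 in CD4 and 0.19 in CD8 cells. With it Gimap7 had log2 differences of -1.26 and -0.85, Gimap1 0.32 and 0.38, and Gimap3 turned to 0.24 and 0.15. Relative to the shifted median of all probe sets, Gimap7 remained the member farthest from it in both subsets.

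**Figure D3:**
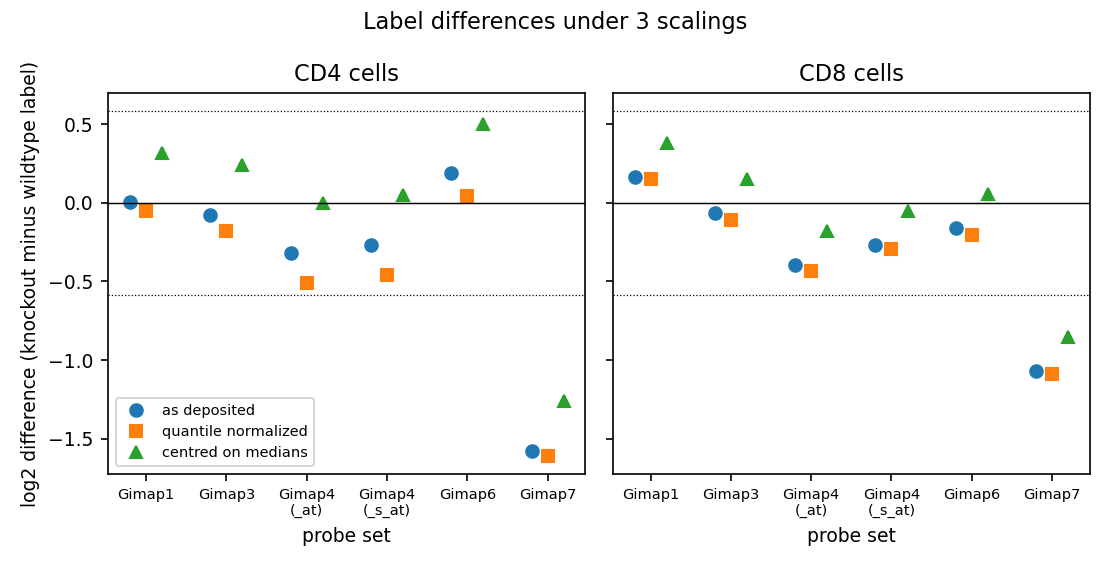
Log2 difference between the labelled genotypes for the 6 Gimap probe sets in CD4 (left) and CD8 cells (right), with circles for values as deposited, squares after quantile normalization and triangles with arrays centred on their medians; dotted lines mark 1.5-fold. Gimap7 lies below the lower dotted line under all 3 scalings, and 4 of the other 5 change sign between scalings in at least 1 subset, all but the Gimap4 probe set ending in _at.

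Between the subsets, Gimap signals were mostly a little lower in CD8 than in CD4 cells. On the arrays labelled wildtype 5 of 6 probe sets were lower in CD8 cells, with a median log2 difference of -0.21, and on those labelled knockout 6 of 6 were, with a median of -0.18. Over all probe sets 50.0% and 50.6% were lower, and the medians were -0.00035 and -0.0045. No member was 1.5-fold apart: 0 of 6 were at least that much lower in CD8 cells, against 11.2% of probe sets on wildtype-labelled and 5.98% on knockout-labelled arrays, and 0 of 6 were higher, against 9.26% and 6.82%. Gimap1 had differences of -0.52 on wildtype-labelled and -0.36 on knockout-labelled arrays, and Gimap3 -0.30 and -0.29. Gimap7 was 1.48-fold lower in CD8 cells on the wildtype-labelled arrays (-0.57) and near level on the knockout-labelled ones (-0.06). In the limma fit 0 of 6 members were called for the subset, where 0.321% of probe sets were, and 1 of 6 had an unadjusted p under 0.05; this was Gimap1, at -0.44 ± 0.13 (SE; adjusted p = 0.307).

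The label differences of Gimap7 were -1.58 in CD4 and -1.07 in CD8 cells, 0.51 apart on the log2 scale, and the difference between them has no test. For the other members the same gap ran from -0.35 (Gimap6) to 0.16 (Gimap1).

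The labels were checked against the signals of their genes. Gfi1 signal was not lower on the arrays labelled knockout, at 2891 against 2272 in CD4 and 2447 against 1158 in CD8 cells, and the sources used here do not say whether its probe set lies in the deleted part. Cd44 read 196 and 252 on the arrays labelled knockout and 8136 and 5740 on those labelled wildtype, CD4 before CD8, although all samples are described as CD44lo. Of 8 T cell markers on the array, such as Cd3e and Thy1, all were above the floor, and their summed signal ran from 98276 to 102808 over the arrays. Neither CD8 array had Cd4, and neither CD4 array Cd8a, above the floor, but Cd8b1 read 971 on knockout CD4 and 312 on wildtype CD4, beside 25715 and 26222 on the CD8 arrays. The 4 MHC class II genes summed to 46620 on the array labelled wildtype CD8 and to 1443 to 4035 on the others, and the 10 dendritic cell and macrophage markers to 2556 there and 425 to 701 on the others; Cd14 and Fcgr1 were below the floor throughout. The 7 B cell markers summed to 12616 to 16983, mostly Ighm, with Cd79a, Ms4a1 and Pax5 below the floor on all arrays. Of the B cell markers 2 were at least 1.5-fold lower with the knockout label in each subset: Cd22 read 154 and 1124 in CD4 and 76.3 and 615 in CD8 cells, knockout before wildtype, Cd79b had a log2 difference of -1.70 in CD4 cells, and Blk one of -1.09 in CD8 cells. Markers of granulocytes (5) were all below the floor, as were 2 of 4 natural killer cell markers and 5 of 7 endothelial and platelet markers. Between the CD4 arrays the median log2 difference of these MHC genes was 0.28, with Cd74 at -0.22 and H2-Aa, H2-Ab1 and H2-Eb1 at 0.11, 0.46 and 0.50; in CD8 cells the median was -4.93. The part of Cd44-high cells, B cells or other cells in the Gimap7 difference was not tested, and fewer cells with Gimap7 RNA cannot be told apart from less of it per cell.

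Genes of naive T cells were often higher with the knockout label in CD4 cells and mostly within 1.5-fold in CD8 cells. Of 16 genes of naive T cell survival and quiescence, 10 were at least 1.5-fold higher on the array labelled knockout in CD4 cells and 0 lower, where 7.68% and 15.5% of 8150 genes were, and 1 was higher and 0 lower in CD8 cells, where 4.39% and 9.87% of 8093 genes were. The list had medians of 0.84 (CD4) and 0.14 (CD8), beside -0.02 over all genes in either subset. Il7r, the receptor gene for the survival cytokine IL-7, read 23352 on knockout CD4 and 13038 on wildtype CD4, and 23447 and 19706 in CD8 cells. Btg1, an antiproliferative gene, read 28763 and 23395 in CD4 and 24533 and 22198 in CD8 cells, in the same order. Of 15 memory and effector genes, 15 were at least 1.5-fold lower in CD4 and 14 in CD8 cells, where 15.5% and 9.87% of genes were. Their medians were -4.41 and -2.36, and 5 of the 6 Gimap differences in CD4 cells lay between -0.32 and 0.19. The Gimap7 difference had the direction of the memory and effector list and a smaller size than its median in either subset.

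Gene groups tied to the Gimap proteins by function or fold were mixed, and several of their counts lie near the shares over all genes, which are 7.68% higher and 15.5% lower in CD4 and 4.39% higher and 9.87% lower in CD8 cells. Of 9 BCL2 family genes, which govern cell death at mitochondria, 3 were at least 1.5-fold higher and 3 lower in CD4 cells, and 0 higher and 3 lower in CD8 cells. Mcl1, a survival member, had log2 differences of 0.14 and 0.11. Bbc3, a death-promoting member, was the highest in CD4 cells at a log2 difference of 1.63 and was -0.66 in CD8 cells. Also higher in CD4 cells were Bcl2 at 1.02 and Bcl2l11 at 0.95. Lower there were Pmaip1 at -1.71, Bcl2l1 at -1.08 and Bid at -0.65. Of 12 autophagy genes 0 were higher and 1 lower in CD4 cells, and 0 and 0 in CD8 cells; Gabarapl2, whose product is the Gimap6 partner, read 4916 and 5471 on knockout and wildtype CD4 and 4288 and 5036 in CD8 cells. Of 8 septin genes, which encode filament-forming GTPases, 2 were lower in CD4 cells and 0 in CD8 cells, and 0 were higher in either; Septin7 read 9180 and 9697 in CD4 and 8456 and 8533 in CD8 cells, knockout before wildtype. Of 8 interferon-inducible GTPase genes, which act in defence within cells, 1 was higher and 2 lower in CD4 cells, and 5 were higher and 1 lower in CD8 cells. Their medians were 0.19 and 0.63, and Igtp read 9609 and 7306 in CD4 and 8623 and 5501 in CD8 cells, knockout before wildtype.

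**Figure D4:**
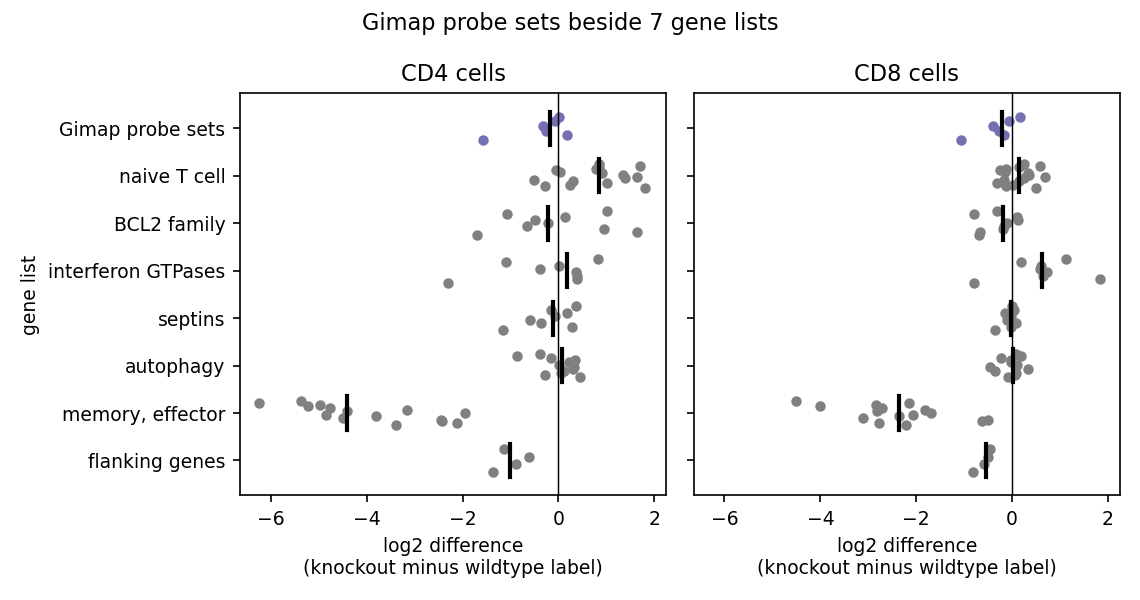
Log2 difference between the labelled genotypes in CD4 (left) and CD8 cells (right) for the Gimap probe sets and for the genes of 7 lists, 1 point per probe set or gene (those at the floor on all arrays left out), with a bar at the median; genes with 1 array at the floor are at their bound. Gimap medians lie at -0.17 and -0.21, between those of the naive list (0.84 and 0.14) and the memory and effector list (-4.41 and -2.36). The medians of the BCL2 family, septin, autophagy and flanking lists also lie between those lists in both subsets.

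The genes on either side of the cluster that lay above the floor were lower with the knockout label in CD4 cells. Of the 3 nearest genes with a probe set on each side, Rarres2 and Aoc1 lay below the floor on all arrays. Tmem176a, which encodes a transmembrane protein, read 276 and 708 on knockout and wildtype CD4 and 276 and 485 in CD8 cells. Tmem176b, its paralogue, read 541 and 1006 in CD4 and 326 and 488 in CD8 cells. Lrrc61 and Repin1, on the Gimap8 side, had log2 differences of -0.61 and -1.14 in CD4 and -0.50 and -0.46 in CD8 cells. In CD4 cells 4 of these 4 measurable genes were lower by 1.5-fold or more, where 15.5% of genes were, and in CD8 cells 1 of 4, where 9.87% were. Of the Gimap genes between them that had a probe set, only Gimap7 was lower by 1.5-fold or more. Gimap8, Gimap9 and Gimap5 also lie there and were not read. In CD4 cells Lrrc61 lay just past that limit. The counts are as deposited and were not repeated with arrays centred on their medians, a scaling that moved CD4 differences upward.

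Probe sets with patterns like those of the family were sought among 11159 others that were above the floor on all 4 arrays and had 1 symbol, by the root mean square difference of centred log2 values over the 4 arrays. Nearest to the mean pattern of the 6 Gimap probe sets were Dtnbp1 (0.0098), Zdhhc5 (0.018), Chid1 (0.025), Ubp1 (0.026) and Fbxw11 (0.027). Gimap7 weighs on this mean, and Gimap4 enters it with 2 probe sets. The label difference of Gimap7 was -1.58 in CD4 and -1.07 in CD8 cells, where the other 5 averaged -0.09 and -0.14. The mean pattern is therefore not that of each member. It is common, since 454 probe sets lay within 0.1 of it. The pattern of Gimap7 alone, a comparison chosen after its values were seen, was rarer, with 3 probe sets within 0.1. These were Wee1 (0.017), which encodes a kinase that holds back entry into mitosis, Marveld2 (0.051), which encodes a tight junction protein, and Lmnb1 (0.082), the lamin B1 gene. Wee1 read 173 on knockout CD4, 504 on wildtype CD4, 166 on knockout CD8 and 339 on wildtype CD8. Nudt4 (0.11) and Rrm1 (0.11), the gene of the large subunit of ribonucleotide reductase, came next. With 4 arrays such likeness describes these arrays only.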

How the data were processed

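The platform was the Affymetrix MOE430A_2.0 array, with 1 array per group. The authors deposited a linear signal intensity for each probe set, made with GCOS 1.4 and MAS5 per the submitters' processing notes, which name no further step. Array medians were 189 to 235, and the share of probe sets above the floor was 58.4% to 61.6%; the number of arrays limits precision.

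The 64 controls were left out. The annotation lists 1 symbol for 20380 probe sets, several for 691 (none with a Gimap gene) and none for 1555; 20351 of the former matched RefSeq by gene ID. Signals below the floor (93.9) were set to it before log2, and a difference needs 1 array above it. Limma 3.58.1 (R 4.3.3, lmFit, eBayes with trend, prior degrees of freedom 6.10) was fitted to the 15273 probe sets with any array above the floor. Its p-values were adjusted by Benjamini-Hochberg at 0.05. The step was also run on simulated data with independent noise, which held no spread between animals and no differences in scaling. In gene lists each gene is read by its brightest probe set (mean log2). Python 3.11.15 with pandas 2.3.3, numpy 2.4.6 and matplotlib 3.10.9 did the rest.

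The text names all members, Gfi1, Cd44, Cd4 and Cd8a, members of the lists (up to 4 a list by signal, others such as Bbc3 and Gabarapl2 after their values were seen), the flanking genes and the 5 nearest patterns. Members, lists and tests were chosen with earlier results of these data known. Alternatives covered the floor, the normalization, the choice of probe sets, the fold and the limma settings.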

Additional observations from a re-analysis of the deposited data

Results flagged for a closer look

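Gimap6 had opposite directions in the subsets: the array labelled knockout was 0.19 higher on the log2 scale in CD4 cells and 0.16 lower in CD8 cells, a gap of -0.35. With 1 array on each side this difference was not tested. With arrays centred on their medians both were positive, at 0.50 in CD4 and 0.06 in CD8 cells, so the directions were no longer opposite.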

How the results depend on the processing

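Gimap7 was at least 1.5-fold lower on the array labelled knockout in both subsets under every floor, scaling and choice of probe sets tried, and at 2-fold as deposited. Other results moved. With arrays centred on their medians, the member median between the labels turned to 0.14 in CD4 and 0.00083 in CD8 cells. After quantile normalization 1 member, Gimap7, was at least 1.5-fold lower in CD8 than in CD4 cells on the wildtype-labelled arrays, where 0 were as deposited. In limma the members called for the labels went from 1 to 0 after quantile normalization (Gimap7 adjusted p = 0.0916), with median centring (0.0799), with averaged probe sets (0.109), without the trend (0.179) and with all non-control probe sets (0.851); the causes were not tested. The calls over all probe sets for the labels were 174 as deposited and ran from 0 (all non-control probe sets; 1306 at an unadjusted p under 0.05) to 589 (floor at the 25th percentile), and for the subset 49 as deposited and from 0 (1145) to 267 under the same settings. No member was called for the subset by limma under any of the settings, and at an unadjusted p under 0.05 there were 0 to 2. Animals could not be paired, because each group has 1 array and the labels carry no replicate numbers. The arrays were paired by subset only: the subset term of limma compares the labels within CD4 and within CD8 cells.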
